A study of Mus musculus with 10 samples.

Results

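The genes described here make sphingolipids and the lipid mediator sphingosine-1-phosphate (S1P), carry S1P out of the cell or sense it at the cell surface. The rule gives the 10 genes by name and uses no measured value, but it was written with earlier results of these data known: Sptlc1, Sptlc2, Degs1 and Cers2 of ceramide synthesis, Sphk1, Sphk2 and Sgpl1 of S1P production and breakdown, the exporter Spns2 and the receptors S1pr1 and S1pr3. All 10 were found among the 46983 gene identifiers of the count table, and all 10 had enough reads to be among the 15949 genes tested. RNA was taken from CD31+ heart cells of male C57BL/6J mice, with no genetic change in either group, that were put on a diet at 8 weeks of age and kept on it for 14 days. The control diet held 11.6% of its energy as fat (5 mice) and the ketogenic diet 89.5% (5 mice), and each mouse gave 1 library made from 10 ng of RNA by full-length cDNA amplification without strand information. Cells were captured on magnetic beads that carry antibodies against CD31, a surface protein of endothelial cells that platelets and some leukocytes also carry.

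Sphingolipids are built on a sphingoid base rather than on glycerol. Serine palmitoyltransferase, whose large subunits are encoded by Sptlc1 and Sptlc2, joins serine to palmitoyl-CoA as the committed step, after which ceramide synthases add a second fatty acid and a desaturase completes ceramide. Ceramide can be broken down to sphingosine, which sphingosine kinases phosphorylate to S1P. Endothelial cells are one source of the S1P in blood and lymph, and they sense it through G protein-coupled receptors that support the endothelial barrier and restrain vessel sprouting.

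None of the 10 genes passed the test between the diets after adjustment over all tested genes. EdgeR's quasi-likelihood F-test, adjusted by the Benjamini-Hochberg method, gave 0 of the 10 genes an adjusted p-value under 0.05, where 213 of 15949 genes had one (1.34%, made up of 0.809% with a higher and 0.527% with a lower ketogenic level). The ketogenic level was 1.09 times the control level for Sptlc1, 0.951 times for Cers2 and 0.947 times for S1pr1, and these 3 genes had unadjusted p-values under 0.05, as did 17.8% of all tested genes (8.57% higher and 9.26% lower). DESeq2 and limma on log2 RPKM also called 0 of the 10. Of the 10 estimates of the log2 fold change, 4 were above and 6 below 0, and their median was −0.04, against −0.01 over all tested genes. Of all bounds of the 95% intervals, the farthest from 0 was −0.39, for Sgpl1, so that changes beyond this size lay outside the interval of every gene.

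**Figure D1:**
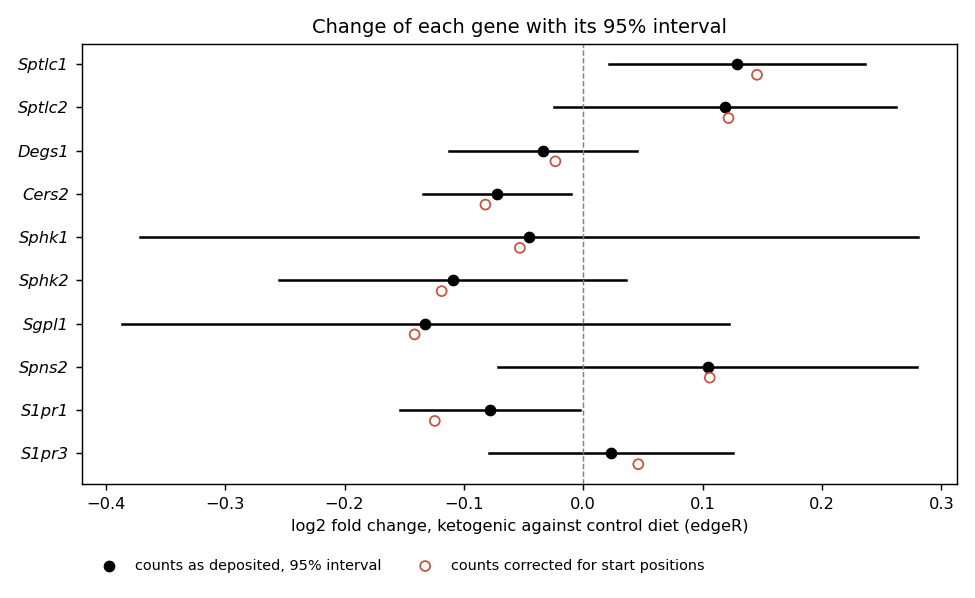
Estimated log2 fold change of each of the 10 genes, ketogenic against control diet, from edgeR on the deposited counts (filled points) with its 95% interval (lines, n = 5 mice per diet) and on counts corrected for start positions, as described further on (open points). The dashed line marks no change. Sptlc1 lies to the right of the line at 0.13 and S1pr1 and Cers2 to the left at −0.08 and −0.07, and the longest lines are those of Sphk1 and Sgpl1.

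Sptlc1 and Sptlc2 are shown by their promoters because they encode the paired subunits of the first enzyme and had estimates of the same direction and nearly the same size. The bases just upstream of each annotated gene start, read 5′ to 3′ on the strand of the gene from RefSeq sequence of GRCm38.p6, are printed with capitals for CCAAT boxes (CCAAT or its complement ATTGG) and GC boxes (GGGCGG or its complement CCGCCC), 2 short motifs common in promoters.
Sptlc1, chr13:53377398-53377611, minus strand: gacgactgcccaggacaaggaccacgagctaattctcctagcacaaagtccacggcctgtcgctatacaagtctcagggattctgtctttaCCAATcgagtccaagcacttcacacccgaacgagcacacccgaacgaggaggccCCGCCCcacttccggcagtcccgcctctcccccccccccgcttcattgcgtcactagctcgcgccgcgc
Sptlc2, chr12:87388356-87388605, minus strand: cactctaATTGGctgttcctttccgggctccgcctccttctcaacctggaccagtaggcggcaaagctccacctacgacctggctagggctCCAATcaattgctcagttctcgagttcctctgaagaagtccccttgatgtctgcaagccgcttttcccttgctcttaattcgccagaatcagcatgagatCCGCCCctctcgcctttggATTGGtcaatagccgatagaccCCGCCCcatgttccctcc
The 214 bases before Sptlc1 held 1 CCAAT box and 1 GC box, and the 250 bases before Sptlc2 held 3 CCAAT boxes and 2 GC boxes. The promoter table had windows of 300 bases for 9 of the 10 genes, all but S1pr1. In these windows, searched on both strands, 7 of the 9 genes had a CCAAT box and 6 a GC box, where 37.4% and 35.7% of all 32851 promoter windows had one. An E-box (CACGTG) was present for 3 of the 9 genes and in 7.15% of all windows, and AGGTCA repeated after 1 base, the form that peroxisome proliferator-activated receptors bind, for 0 of the 9 genes and in 0.0396% of all windows. Several genes had more than 1 window, 15 in all, which raises the chance of a match per gene, and a match here is only a run of letters.

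Normalized counts below are read counts scaled by edgeR's TMM factors to a common library size. Each gene's values are given for mice 1 to 5 of a diet in the order of the mouse numbers. The labels do not say whether these numbers pair mice, and they were not used as pairs. Sptlc1 (ENSMUSG00000021468.7, chromosome 13 from 53332748 to 53377397, minus strand), the subunit shared by all forms of serine palmitoyltransferase, had normalized counts of 1080.0, 1005, 1056, 927 and 1045 on the control diet. On the ketogenic diet they were 1126, 1091, 1108, 1087 and 1176. All 5 ketogenic mice lay above all 5 control mice, by a margin that was narrow between control mouse 1 and ketogenic mouse 4. The means were 1023 ± 59.7 (SD, n = 5) and 1118 ± 36.0 (SD, n = 5), a log2 fold change of 0.13 (standard error, SE, 0.0490, 95% interval 0.02 to 0.24) with an adjusted p of 0.197 from edgeR. The two-sided exact permutation test of this gene alone gave p = 0.00794, the smallest that 5 against 5 mice can give. The same test gave 0.0159 for Cers2, 0.0635 for S1pr1 and 0.119 (Sphk2) to 0.913 (Sphk1) for the other genes. These p-values were not adjusted over the 10 genes. Sptlc1 was the only one of the 10 genes without overlap between the diets, where 4.34% of all tested genes had none.

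Sptlc2 (chromosome 12 from 87305058 to 87388355, minus strand), the catalytic partner of Sptlc1, had normalized counts of 1452, 1629, 1662, 1592 and 1487 on the control diet. On the ketogenic diet they were 1952, 1611, 1707, 1508 and 1714. Ketogenic mice 1, 3 and 5 lay above all control mice, and the other two lay within the control range. The log2 fold change was 0.12 (SE 0.0658, 95% interval −0.02 to 0.26, adjusted p = 0.373 from edgeR), and 0.067 without ketogenic mouse 1, the highest. Within each mouse, the log2 ratio of Sptlc1 to Sptlc2 was −0.61 ± 0.143 (SD, n = 5) on the control diet and −0.60 ± 0.122 (SD, n = 5) on the ketogenic diet, and the 2 subunits did not differ detectably in their change (difference 0.01, two-sided exact permutation p = 0.873, and 0.873 after adjustment over the 3 ratios tested).

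**Figure D2:**
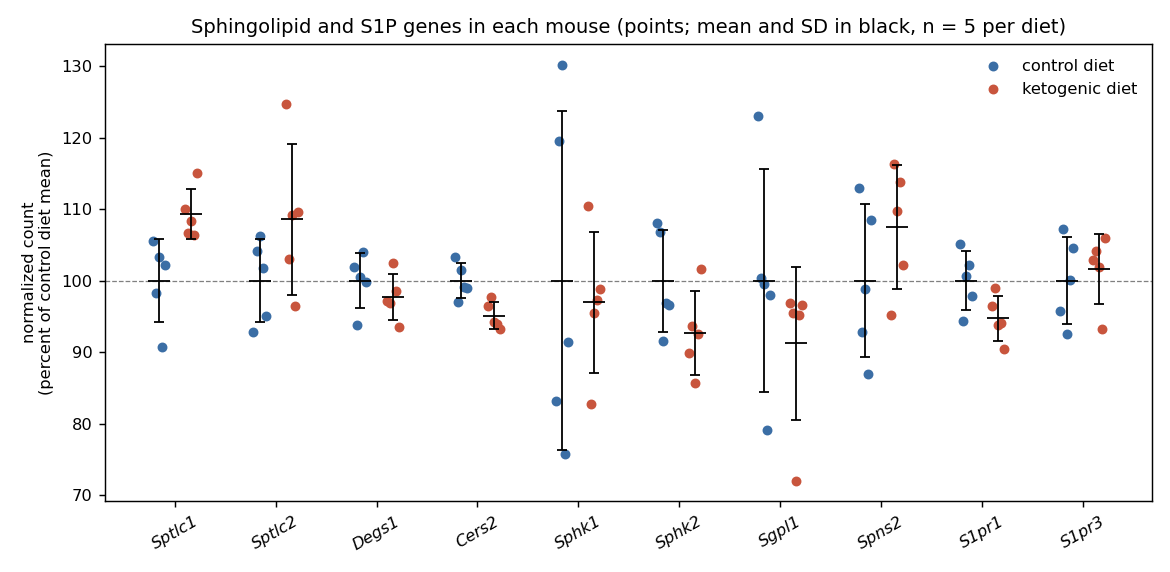
Normalized count of each of the 10 genes in every mouse (points, by diet) as a percent of the mean over the gene's control mice, with the mean and SD of each diet in black (n = 5 per diet). The 5 ketogenic points of Sptlc1 lie above all of its control points, 4 ketogenic points of Cers2 lie below all of its control points, and Sphk1 and Sgpl1 scatter most.

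Degs1 (chromosome 1 from 182275772 to 182282804, minus strand), the desaturase that turns dihydroceramide into ceramide, had normalized counts of 2855, 2628, 2817, 2915 and 2797 on the control diet and 2721, 2716, 2869.7, 2760.0 and 2619.6 on the ketogenic diet. The diets overlapped over most of their range. EdgeR gave a log2 fold change of −0.03 (SE 0.0361, 95% interval −0.11 to 0.05, adjusted p = 0.662).

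Cers2 (chromosome 3 from 95314791 to 95323599, plus strand), the ceramide synthase that prefers very long fatty acyl chains, had normalized counts of 3566, 3347, 3501, 3418 and 3417 on the control diet. On the ketogenic diet they were 3326, 3373, 3249.6, 3241 and 3216, so that 4 of 5 ketogenic mice lay below all control mice and ketogenic mouse 2 lay just above control mouse 2. The log2 fold change was −0.07 (SE 0.0284, 95% interval −0.13 to −0.01), with an unadjusted p of 0.0256 and an adjusted p of 0.208 from edgeR.

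The enzymes that make and break S1P inside the cell showed no detectable difference. Sphk1 (chromosome 11 from 116530925 to 116536674, plus strand), a sphingosine kinase found mainly in the cytoplasm and at the plasma membrane, had between 171 and 299 reads per mouse, the fewest of the 10 genes. Its normalized counts were 198, 284, 309.5, 180.0 and 217 on the control diet and 262, 197, 227, 231 and 235 on the ketogenic diet. The ketogenic mice all lay within the control range, which was wide, with an SD of 23.7% of the mean against 10.2% on the ketogenic diet. The log2 fold change of −0.05 (SE 0.149, adjusted p = 0.904 from edgeR) had an interval from −0.37 to 0.28, or 0.773 to 1.21 times the control level, so that changes within these bounds could not be told from none. The estimate became positive without control mouse 2 (0.03), without control mouse 3 (0.07) or without ketogenic mouse 2 (0.0066).

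Sphk2 (chromosome 7 from 45709467 to 45718002, minus strand), the kinase found in the nucleus, mitochondria and endoplasmic reticulum, had normalized counts of 674, 666, 571, 604 and 602 on the control diet and 560.4, 584, 534, 577 and 634 on the ketogenic diet. Control mice 1 and 2 were the highest, and the rest of the control mice lay among the ketogenic mice. The change was estimated at −0.11 on the log2 scale (SE 0.0667, 95% interval −0.25 to 0.04, adjusted p = 0.418 from edgeR). Exons of Dbp and Rpl18 on the opposite strand cover 539 and 373 bases of the exons of Sphk2 (13.0% and 8.97%), and without strand information reads there cannot be assigned to one gene. The log2 ratio of Sphk1 to Sphk2 within a mouse was −1.42 ± 0.372 (SD, n = 5) on the control diet and −1.33 ± 0.183 (SD, n = 5) on the ketogenic diet (difference 0.09, two-sided exact permutation p = 0.659, adjusted p = 0.873 over the 3 ratios).

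Sgpl1 (chromosome 10 from 61098642 to 61147703, minus strand), the lyase that cleaves S1P irreversibly, had normalized counts of 546, 446, 442, 352 and 436 on the control diet. On the ketogenic diet 4 mice were close together at 430.2, 424, 423 and 429, and ketogenic mouse 3 stood apart at 320.1. On the log2 scale the change was estimated at −0.13 (SE 0.117, 95% interval −0.39 to 0.12, adjusted p = 0.585 from edgeR). It was −0.052 without ketogenic mouse 3, −0.047 without control mouse 1 and −0.20 without control mouse 4.

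Cardiomyocyte markers had higher estimates on the ketogenic diet. The log2 fold change was above 0 for 8 of 8 markers (median 0.29), of which 0 had an adjusted p under 0.05 by edgeR, and their summed RPKM was 178 to 216 on the control diet and 201 to 269.9 on the ketogenic diet. The score of each mouse for these markers ran from −1.31 to 0.20 on the control and from −0.49 to 1.58 on the ketogenic diet. It thus differed with the diet. With this score in the fit, the log2 fold change of Sphk2 became 0.0032 (SE 0.0860) and that of Sgpl1 0.080 (SE 0.144). In this fit 0 of the 10 genes were called. Degs1 was at −0.086, Spns2 at 0.039, S1pr3 at 0.082 and Sphk1 at −0.016. Sptlc1 was at 0.15, Sptlc2 at 0.18, Cers2 at −0.068 and S1pr1 at −0.080. The part of cardiomyocyte RNA in these values was not tested beyond this fit. In a bulk sample, fewer cells of a type and less RNA per cell cannot be told apart.

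Spns2 (chromosome 11 from 72451638 to 72489904, minus strand), the transporter through which endothelial cells release S1P, had normalized counts of 915, 752, 801, 704 and 879 on the control diet. On the ketogenic diet they were 772, 943, 889, 922 and 828, with mice 2 and 4 above every control mouse and mice 1 and 5 within the control range, as was mouse 3. The log2 fold change was 0.10 (SE 0.0806, 95% interval −0.07 to 0.28, adjusted p = 0.530 from edgeR), and 0.058 without control mouse 4, the lowest.

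S1pr1 (ENSMUSG00000045092.8, chromosome 3 from 115710433 to 115715072, minus strand), the main S1P receptor of endothelial cells, which signals through Gi, had the highest level of the 10 genes. Its normalized counts were 6157, 5527, 5893, 5988 and 5729 on the control diet and 5651, 5797, 5492, 5509 and 5300.2 on the ketogenic diet. Ketogenic mice 3, 4 and 5 lay below all control mice, and mice 1 and 2 within the control range. The means were 5859 ± 242 (SD, n = 5) and 5550 ± 186 (SD, n = 5), a log2 fold change of −0.08 (SE 0.0347, 95% interval −0.15 to −0.0026). The unadjusted p was 0.0437, and the adjusted p 0.262 from edgeR. The normalized count was highest in the library with the fewest reads (control mouse 1, 10885154). It was lowest in the library with the most (ketogenic mouse 5, 12710861), while the raw counts there were 5701 and 5817. What part depth has in the difference between the diets was not tested beyond the correction for start positions given further on.

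S1pr3 (chromosome 13 from 51408639 to 51422797, plus strand), a receptor that couples to Gq and G12/13 as well as Gi, had normalized counts of 3825, 4287, 3696, 3997 and 4177 on the control diet and 4109.6, 4164, 4074, 3725 and 4234 on the ketogenic diet. All 5 ketogenic mice lay within the control range, and the log2 fold change was 0.02 (SE 0.0469, 95% interval −0.08 to 0.13, adjusted p = 0.835 from edgeR). It was −0.0033 without control mouse 3. The log2 ratio of S1pr1 to S1pr3 was 0.55 ± 0.139 (SD, n = 5) on the control diet and 0.45 ± 0.0869 (SD, n = 5) on the ketogenic diet, a difference of −0.10 that did not pass the test (two-sided exact permutation p = 0.190, adjusted p = 0.571 over the 3 ratios).

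The counts of S1pr1 varied less than the depth of the libraries. Its raw counts lay between 5545 and 5817, an SD of 1.43% of the mean over the 10 mice, while the reads counted on all genes varied by 4.77%. Control mouse 2 had more reads in all than control mouse 1 by 0.17 on the log2 scale, but more reads on S1pr1 by only 0.02. Ketogenic mouse 5 exceeded ketogenic mouse 2 by 0.19 in all reads and by 0.07 on S1pr1. The exons of S1pr1 are 3046 bases long, and with both strands a read can start at 6092 places, so that its counts equal 91.0% to 95.5% of these places. Averaged over the 10 mice, no gene had more than 2.08 reads per base of the exon length used here. The highest mean share in a tested gene was 104%, slightly more counts than it has start places.

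Other genes with many reads for their length also moved little with depth. In the pair of control mice, the median log2 count ratio was 0.22 for the 6144 genes whose counts equal under 10% of their start positions and 0.03 for the 151 genes over 75%. In the ketogenic pair it was 0.23 and 0.04. Whether reads from the same start were removed is not given in the sources used here, and a limit on start positions was not tested. After a correction that assumes each start position to be counted at most once, S1pr1 had an estimated 16992 ± 815 reads (SD, n = 5) on the control diet and 16442 ± 1654 (SD, n = 5) on the ketogenic diet before scaling, 2.93 times its deposited counts. The corrected log2 fold change was −0.12 (SE 0.0405, adjusted p = 0.140 from edgeR), against −0.08 from the deposited counts. Of the others, the counts of Degs1, Cers2 and S1pr3 equal 53.4%, 45.7% and 45.2% of their start positions on average, those of Sptlc1 20.6% (15.1% over its longer merged exons, given with the levels), and the remaining 5 genes at most 10.3%.

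**Figure D3:**
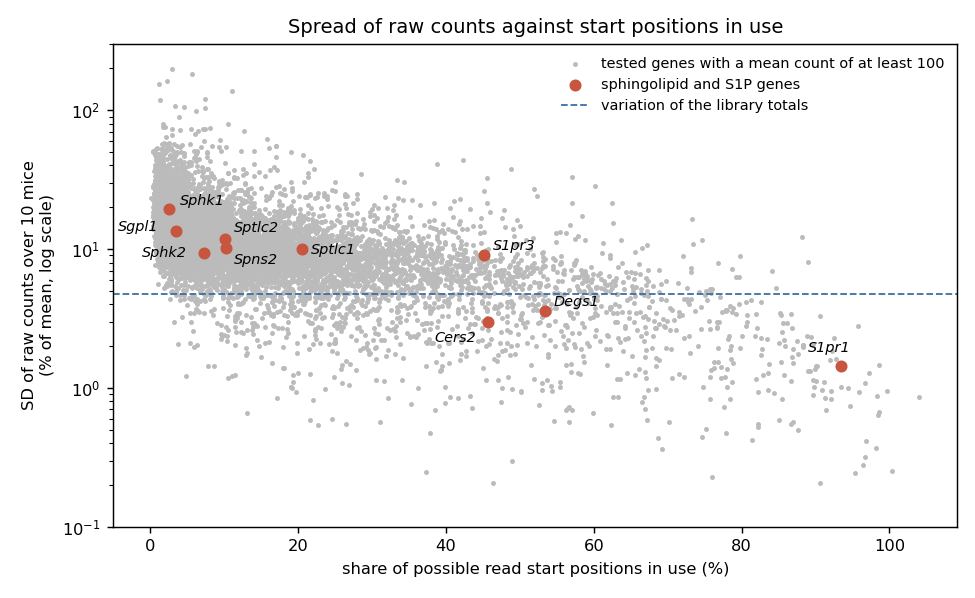
Spread of the raw counts over the 10 mice (SD as a percent of the mean, log scale) against counts as a mean share of possible read start positions (percent, counts divided by 2 times the shorter of merged exon and deposited length), for tested genes whose mean count reached 100 (grey) and the 10 genes (red). S1pr1 sits at 93.4% and 1.43%, below the dashed line at 4.77% that marks the variation of the library totals, as do Degs1 and Cers2 at 53.4% and 45.7%. S1pr3, with a share of 45.2% near that of Cers2, lies above the line at 9.01%.

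Levels between genes were compared per length, as RPKM recomputed over the merged exons of GENCODE M21 or, where shorter, over the length behind the deposited RPKM, which was so for Sptlc1 alone. S1pr1 stood highest at 160.6 (range over the 10 mice 150.2 to 172), followed by Degs1 at 91.7 (87.1 to 95.4), Cers2 at 78.5 (75.5 to 82.5) and S1pr3 at 77.4 (70.9 to 82.5). Sptlc1 followed at 35.2 (30.2 to 39.0) over its deposited length of 2606 bases and would be at 25.8 (22.1 to 28.6) over its merged exons of 3556 bases, which leaves its place the same. Next came Spns2 at 17.7 (14.6 to 19.9), Sptlc2 at 17.2 (15.2 to 20.7) and Sphk2 at 12.4 (11.05 to 13.8). Sgpl1 at 5.93 (4.48 to 7.57) and Sphk1 at 4.21 (3.20 to 5.55) were lowest. The ranges of Cers2 and S1pr3, of Spns2 and Sptlc2, and of Sgpl1 and Sphk1 overlapped, and all other neighbours in this order were separated in every mouse. The correction for start positions, which assumes its limit, raised S1pr1 the most of the 10 genes.

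The deposited RPKM put some of these genes elsewhere in the order. The lengths behind them were longer than the merged exons for 8 of the 10 genes, equal for S1pr1 and shorter for Sptlc1, whose identifier has another version in GENCODE M21, as have those of S1pr3 and Sphk2. The deposited RPKM of Sphk1 was 1.37, from a length of 14667 bases where its merged exons span 4774, and that of Cers2 was 40.4, near the 35.2 of Sptlc1. Among tested genes whose identifier version matched and that have 1 annotated transcript, 2801 of 2801 had the same length both ways, and over 8227 such genes with several transcripts the deposited length was a median 1.57 times the merged exons. Changes between the diets are not touched, as the length of a gene is the same in every mouse.

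**Figure D4:**
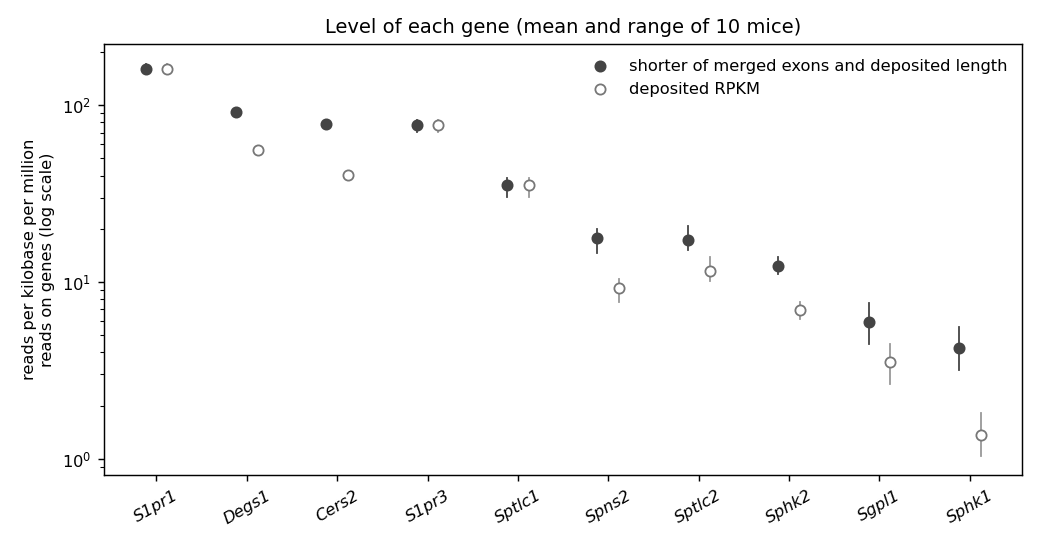
Level of each of the 10 genes as RPKM (log scale), over the shorter of merged exons and deposited length (filled points) and as deposited (open points), with the mean over the 10 mice and a line from the lowest to the highest mouse. S1pr1 is highest at 160.6 and Sphk1 lowest at 4.21 among the filled points, and the open point of Sphk1 lies lower, at 1.37.

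In a wider list of 67 genes of sphingolipid and S1P biology, the 10 included, 59 were tested and 0 had an adjusted p-value under 0.05 by edgeR (1.34% of all tested genes did). Estimates were higher on the ketogenic diet for 29 and lower for 30, with a median of −0.01, and 15 of the 59 had an unadjusted p under 0.05, 8 higher and 7 lower, where 17.8% of all tested genes had one. DESeq2 called 4 of the 59 (Gnai1, Cd69, Cers5 and Ormdl3), and 5.12% of all tested genes. The diets did not overlap for 4 genes of the list, Sptlc1, Cers5, Asah1 and Gnai1 (4.34% of all tested genes). Sptlc3, Sptssb, Cers1, Cers3, Acer1, Apom, Mfsd2a and S1pr5 had too few reads to be tested.

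Among 14 tested genes of ceramide synthesis, 4 had an unadjusted p under 0.05 with higher and 1 with lower estimates on the ketogenic diet (8.57% and 9.26% of all tested genes), and the median log2 fold change was 0.04. Besides Sptlc1 those with higher estimates were Cers5, Ormdl3 and Kdsr. Cers5, a ceramide synthase that prefers palmitoyl chains, had normalized counts of 1592, 1578, 1492, 1629.7 and 1452 on the control diet and 1712, 1646, 1857, 1825 and 1646 on the ketogenic diet, with every ketogenic mouse above every control mouse (log2 fold change 0.17, SE 0.0485, adjusted p = 0.110 from edgeR and 0.0363 from DESeq2). Ormdl3, which restrains serine palmitoyltransferase when ceramide is high, was at 0.16 (adjusted p = 0.123 from edgeR and 0.0483 from DESeq2), with 4 of the 5 ketogenic mice above all control mice. Kdsr, the reductase of the second step, was at 0.13 (adjusted p = 0.150 from edgeR). Sptssa, a small activating subunit of serine palmitoyltransferase, had the highest deposited RPKM of the group, 103, and a log2 fold change of 0.03 (adjusted p = 0.684 from edgeR).

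Of 17 tested genes that convert or break down ceramide, 2 had an unadjusted p under 0.05, both with higher estimates on the ketogenic diet (17.8% of all tested genes in either direction), and the median was 0.05. Asah1, the lysosomal acid ceramidase that frees sphingosine, had normalized counts of 3166, 2964, 3045, 3135 and 2997 on the control diet and 3232, 3259, 3354, 3252 and 3169.9 on the ketogenic diet (log2 fold change 0.09, SE 0.0297, adjusted p = 0.156 from edgeR). The diets did not overlap, but the highest control mouse and the lowest ketogenic mouse were nearly equal. Smpd1, the lysosomal sphingomyelinase, had the highest deposited RPKM of the group, 57.3, where Asah1 stood higher over merged exons at 79.9, and a log2 fold change of 0.05 (adjusted p = 0.537 from edgeR).

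Of 8 tested genes that make or remove S1P, only Plpp1 had an unadjusted p under 0.05 (17.8% of all tested genes). Plpp1, a lipid phosphatase of the cell surface that is named here after its values were seen, was at 0.11 (adjusted p = 0.191 from edgeR), and after the correction for start positions at 0.28 (adjusted p = 0.0344 from edgeR), the only call of the 59 under that correction, which called 1.59% of all tested genes. Its normalized counts overlapped, 2351 to 2670 on the control diet and 2538 to 2706 on the ketogenic diet. Its counts equal 73.1% of its start positions on average, over merged exons of 1750 bases. The deposited length is 2179 bases, and the correction over that length was not tested. Plpp3, a related phosphatase, had the highest deposited RPKM of the group, 100.8, just above the 100.7 of Plpp1, but over merged exons Plpp1 stood higher at 125.4. Plpp3 itself had a log2 fold change of 0.02 (adjusted p = 0.846 from edgeR).

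Beside Spns2, the only other exporter tested was Mfsd2b, the S1P transporter of erythrocytes and platelets. Its normalized counts were 389, 690.3, 758, 675 and 390.2 on the control diet and 321, 111, 402, 170.1 and 351 on the ketogenic diet, with the lowest values in ketogenic mice 2 and 4 and an overlap at control mice 1 and 5. The log2 fold change was −1.10 (SE 0.318, adjusted p = 0.108 from edgeR). Platelet markers were lower in the same direction, 4 of 4 by estimate and 0 with an adjusted p under 0.05 by edgeR. Their median log2 fold change was −0.75, with a summed RPKM of 258 to 369 on the control diet and 125 to 287 on the ketogenic diet. Erythroid markers had a summed RPKM of 80.4 to 96.4 and 89.3 to 93.6. The part of these cells in the value of Mfsd2b was not tested.

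Of the 4 tested receptors, S1pr2 and S1pr4 had log2 fold changes of 0.16 and −0.11 (adjusted p = 0.710 and 0.631 from edgeR). Among 14 genes that act with the receptors, 1 had an unadjusted p under 0.05 with a higher and 4 with a lower estimate on the ketogenic diet (8.57% and 9.26% of all tested genes), and the median was −0.05. Gnai1, an inhibitory G protein subunit, had normalized counts of 45.4, 101, 65.2, 64.2 and 95.5 on the control diet and 109.5, 114, 156, 119.5 and 123 on the ketogenic diet. Every ketogenic mouse lay above every control mouse, and the log2 fold change was 0.74 (SE 0.203, adjusted p = 0.0929 from edgeR and 0.0195 from DESeq2). Cd69, a lymphocyte protein that draws S1PR1 from the cell surface, was at −0.56 (SE 0.165, adjusted p = 0.113 from edgeR and 0.0220 from DESeq2). Its normalized counts ran from 415 to 654 on the control diet and from 271 to 429 on the ketogenic diet, with 3 control mice above all ketogenic mice. The summed RPKM of 6 lymphocyte markers was 58.9 to 79.7 on the control diet and 49.6 to 57.9 on the ketogenic diet, with 1 marker called lower by edgeR (Cd79a, log2 fold change −0.46, adjusted p = 0.0221), and their part in the value of Cd69 was not tested. Klf2, a flow-responsive transcription factor that drives S1pr1 transcription, had the highest deposited RPKM of this group, 83.4, and a log2 fold change of −0.13 (SE 0.0409, adjusted p = 0.124 from edgeR).

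**Figure D5:**
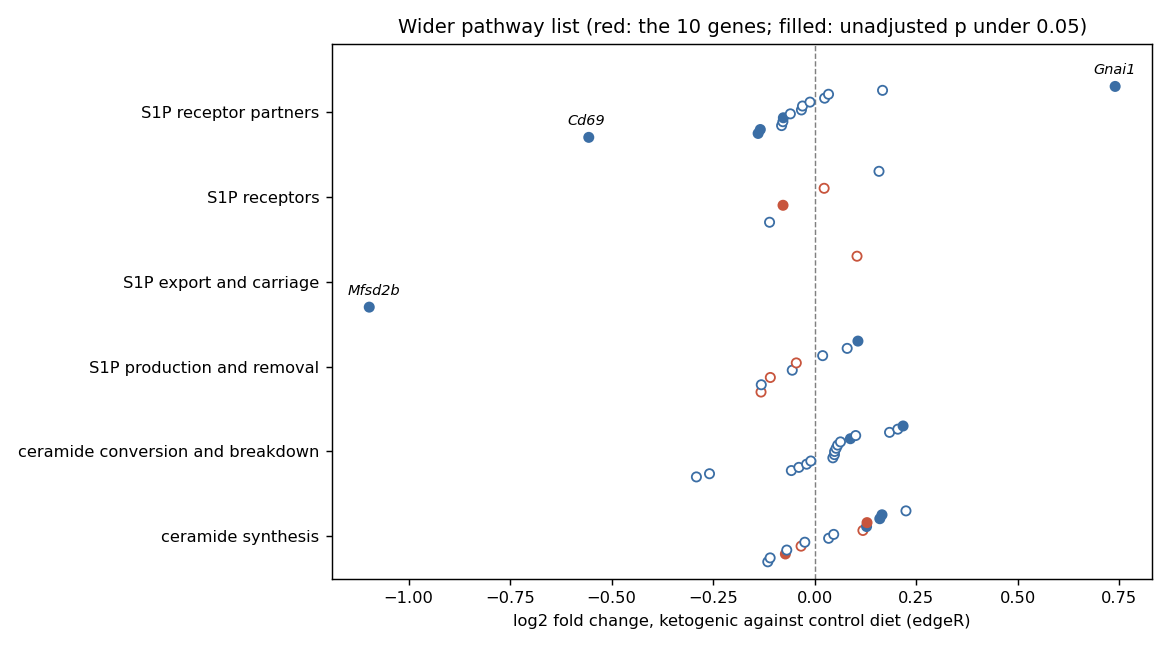
Log2 fold change, ketogenic against control diet, of the 59 tested genes of the wider list by group (edgeR), with the 10 genes in red and filled points for an unadjusted p under 0.05. Most points lie between −0.3 and 0.3, and Gnai1 at 0.74, Cd69 at −0.56 and Mfsd2b at −1.10 lie outside.

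The genes whose pattern over the 10 mice was most like that of S1pr1, by the root mean square difference of z-scored log2 CPM (counts scaled to library size), were Actn4 (0.120), Gpx1 (0.157) and Cd74 (0.161). Their counts equal 53.7%, 57.9% and 76.3% of their start positions on average. As counts of such genes moved less with depth, part of this likeness may follow library depth, which was not tested.

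The libraries held 10885154 to 12206734 counted reads on the control diet (median 11285659) and 11108020 to 12710861 on the ketogenic diet (median 11837379). Checked against the label of endothelial cells, all 8 endothelial markers were present in every mouse, with a summed deposited RPKM of 523 to 561 and 508 to 571, and 0 of 8 called. Counts of Cdh5, Tek and Tie1 equal 93.5%, 87.5% and 77.2% of their start positions on average, those of the other markers 30.8% (Emcn) to 55.4% (Pecam1). As such counts moved less with depth, a steady sum says little about the endothelial share. Markers of fibroblasts (209 to 244 and 198 to 245) and of mural cells (567 to 601 and 546 to 602) were present as well, and no marker was at 0 in all mice. Macrophage markers ranged from 38.3 to 157 and from 38.2 to 83.0, the highest in control mouse 1. Whether the 10 genes were read from endothelial cells alone was not tested.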

How the data were processed

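RNA of CD31+ heart cells was read as single reads of 50 bases. The submitters' processing notes name bcl2fastq 2.17.1.14, STAR 2.3, HTSeq 0.6.0 and the mm10 genome. The annotation release, the strand setting and any removal of duplicate reads are not given in the sources used here. The authors deposited raw counts per gene and RPKM values, which are the counts scaled to gene length and counted reads. Of 46983 identifiers, 46488 were found in GENCODE M21 on GRCm38, 37902 of them with the same version. Counts were tested with edgeR 4.0.16 in R 4.3.3 (TMM, filterByExpr, quasi-likelihood F-test, Benjamini-Hochberg over 15949 genes), with DESeq2 1.42.0 and limma 3.58.1 on the deposited RPKM as alternatives. Other scalings and filters, a replicate block, a cardiomyocyte marker score and leaving out each mouse were also tried. The standard error (SE) of a change was taken as its size over √F. Single genes and ratios were also compared over all 252 groupings of the mice. The correction for start positions estimated reads as −K ln(1 − n/K), with n the count and K 2 times the exon length (the shorter of merged exons and deposited length), with n/K held to at most 99%. The fits were tested on simulated data with planted changes larger than any estimate of the 10 genes. That simulation does not show how well smaller changes are found. Of the wider list, the text names the genes with an adjusted p under 0.05, up to 8 others with the smallest unadjusted p and the gene of each group with the highest RPKM. The 10 genes, the lists and the rules were chosen with earlier results of these data known. Levels over these lengths were an addition made after seeing the data. The labels number the mice and name no litter or batch, so p-values measure the spread between these libraries.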

Additional observations from a re-analysis of the deposited data

Results flagged for a closer look

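Among 20 groups of 5 mice, the 10 genes on each diet, 1 held a sample far from the others. Sgpl1 in ketogenic mouse 3 had a normalized count of 320.1, where the other 4 ketogenic mice lay between 423 and 430.2, and the gap to the nearest mouse made up 0.932 of the range of the group, above the limit of 0.71 for 5 samples. Chance puts about 1 group in 20 above the limit of 0.71, and how often it gives a value as high as 0.932 was not tested.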

How the results depend on the processing

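None of the 10 genes was called under any alternative that was run, each mouse left out in turn included. Of the wider list, DESeq2 called 4 genes, the correction for start positions 1 and every other alternative 0. Over all tested genes, 213 were called in the reported fit, 816 by DESeq2 and 19 with cardiomyocyte marker scores in the fit. With the replicate number as a block, 113 genes and 0 of the 10 were called. Same-numbered mice deviated together with correlations from −0.13 to 0.09, and the labels do not say whether the numbers pair mice. Leaving out 1 mouse gave 86 (control mouse 2) to 492 (ketogenic mouse 2) called genes, a change of over 1.5 times for every mouse except control mouse 5. Other scalings and filters, limma and the correction for start positions gave 187 to 254.

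The direction changed with cardiomyocyte scores for Sphk2 (0.0032, SE 0.0860) and Sgpl1 (0.080, SE 0.144). Leaving out 1 mouse gave log2 fold changes from −0.13 to 0.068 for Sphk1 and from −0.0033 to 0.054 for S1pr3, and a difference of the Sptlc1 to Sptlc2 log2 ratio from −0.027 to 0.063. The last fell below 0 without control mouse 2, control mouse 4 or ketogenic mouse 4. The causes were not tested. Sphk1 and Sgpl1 had the fewest reads and the widest intervals of the 10.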
